A study of Mus musculus with 3 samples.

Results

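Methylation at CG cytosines was followed through osteoclast differentiation in 10 genes of the adhesion machinery: the integrin subunit genes Itgav, Itgb3, Itgb5, Itgb1, Itga4 and Itga6, the tyrosine kinase genes Src and Ptk2b, and the ubiquitin ligase genes Cbl and Cblb. A region belonged to a gene if it overlapped its RefSeq span on GRCm38 by at least 1 bp. By this rule the genes held 279 of the 432641 distinct regions in the authors' 3 tables. Whole-genome bisulfite sequencing, which reads unmethylated cytosines as thymines, was made from 1 library for each of 3 stages of mouse marrow culture (C57BL/6, 11 weeks old). Marrow cells that floated after 24 h were kept for 72 h in M-CSF (50 ng/mL), which macrophages need to grow and survive, to give bone marrow macrophages (BMM). BMM then received both M-CSF (30 ng/mL) and RANKL (100 ng/mL), the cytokine that drives osteoclast formation. Preosteoclasts (pOC) had 24 h of this mixture and mature osteoclasts (mOC) had 72 h or more. The sources used here give neither the number of mice behind a library nor the share of multinucleated cells in the mOC culture.

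Integrins are cell surface receptors made of an alpha and a beta subunit that bind the matrix outside the cell and the actin skeleton inside it. The pair of alpha v and beta 3 is the main integrin by which an osteoclast holds on to bone and forms its sealing zone. Engaged integrins recruit Src and Pyk2, the kinase encoded by Ptk2b, and these act with the ubiquitin ligases Cbl and Cbl-b on the cytoskeleton and on the turnover of the receptors.

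Each stage had 1 library, so differences between stages carry no replicate error, and every test compares the reads of 2 libraries. Values are levels, the methylated share of all reads in a region, each followed by its exact 95% interval and its number of reads summed over cytosines. Those intervals cover counting error only, and they are too narrow because a read that spans several cytosines is counted at each. The pOC library stood apart across the whole series: 92.9% of all regions listed for pOC against BMM were lower in pOC, and 89.1% of all regions listed for mOC against pOC were higher in mOC. A property of that library and a property of the cells at 24 h cannot be told apart with 1 library, so the comparison of mOC with BMM is given as the result without it. A level averages over all cells in the culture, so a shift in the mix of cells and a change within cells cannot be told apart either. The tables hold no expression values, and the labelled cell types could not be checked against their markers.

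RefSeq promoter entries of GRCm38.p6 matched 7 of the 10 genes, all except Itgb3, Itga6 and Ptk2b, and no listed region of any table overlapped one of these 7 windows. Across the series 2.85%, 2.47% and 0.781% of 27025 promoters overlapped a region listed for pOC against BMM, mOC against pOC and mOC against BMM, so the lack of one in 7 windows is near the background. The tables do not say which windows had enough reads to be listed. The 4 sequences below are the 250 bases before the start site, 5′ to 3′ on the plus strand, with each CG in capitals. Src and Itga4 are shown as the windows with the most and the fewest CG of the 7. Itgb5 and Cblb are shown as those nearest to a listed region of their own gene span. Regions outside the span were not considered for this distance.
Src, chr2:157424043-157424292: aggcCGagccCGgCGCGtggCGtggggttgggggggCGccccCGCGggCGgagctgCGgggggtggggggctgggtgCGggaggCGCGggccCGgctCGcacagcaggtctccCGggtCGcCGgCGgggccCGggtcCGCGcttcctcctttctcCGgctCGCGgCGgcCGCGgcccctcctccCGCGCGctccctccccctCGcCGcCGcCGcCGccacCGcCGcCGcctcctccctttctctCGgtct
Itga4, chr2:79255176-79255425: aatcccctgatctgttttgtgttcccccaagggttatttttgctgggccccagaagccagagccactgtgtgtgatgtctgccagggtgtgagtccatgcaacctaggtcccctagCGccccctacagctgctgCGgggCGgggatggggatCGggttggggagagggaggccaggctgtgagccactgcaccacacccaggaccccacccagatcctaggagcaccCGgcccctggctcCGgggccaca
Itgb5, chr16:33829415-33829664: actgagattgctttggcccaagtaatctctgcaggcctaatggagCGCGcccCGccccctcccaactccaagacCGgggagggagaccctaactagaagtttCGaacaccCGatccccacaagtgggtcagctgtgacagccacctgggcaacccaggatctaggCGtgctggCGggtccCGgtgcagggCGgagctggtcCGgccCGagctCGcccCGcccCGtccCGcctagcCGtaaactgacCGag
Cblb, chr16:52031299-52031548: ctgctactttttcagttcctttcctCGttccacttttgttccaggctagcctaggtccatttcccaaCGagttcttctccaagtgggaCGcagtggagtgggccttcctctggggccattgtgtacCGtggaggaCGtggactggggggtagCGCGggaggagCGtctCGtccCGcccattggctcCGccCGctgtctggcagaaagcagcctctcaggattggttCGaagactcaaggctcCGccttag
The Src window held 40 CG, a number reached by 1.31% of the 32851 promoter entries of the same length, and the Cbl window held 33 (4.03%). Itgb1 had 21, Itgav and Itgb5 had 18 each, Cblb had 14 and Itga4 had 6, the last reached by 50.4% of entries. At least 1 CG stood in 92.1% of all entries. Counted on both strands as in the authors' tables, the Src window held 64.0 cytosines per 200 bp and the Itga4 window 9.60, while the listed regions of the 10 genes held a median of 6.00 per 200 bp in pOC against BMM. The nearest listed region of the gene span began 1652 bp downstream of the start site in Cblb and 1736 bp in Itgb5. It lay 3576 bp downstream in Itga4, 4147 bp in Itgb1, 4846 bp in Cbl, 5605 bp in Itgav and 7509 bp in Src. In these 7 genes the values below thus come from downstream of the start site used, within the gene span. A single start site per gene was used, and regions at other start sites were not looked for.

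After 24 h of RANKL the adhesion genes were mostly lower in methylation, as was the rest of the series. All 10 genes held a region listed for pOC against BMM, as did 67.2% of protein-coding genes. A longer gene has more room for a region, and these 10 spanned 47.9 to 176.8 kb. Per 10 kb they held 1.87 listed regions, against 1.31 over all protein-coding genes, a difference that was not tested. Of the 170 regions of the 10 genes, 164 were lower in pOC and 6 higher, against 92.9% lower and 7.06% higher in the whole table. Cblb held 46 lower regions, Cbl 24, Itgav and Ptk2b 22 each, Itga4 18, Itgb5 13, Itga6 8, Src 5, Itgb1 4 and Itgb3 2. Per 10 kb of span, listed regions of both directions numbered 2.74 in Cbl, 2.66 in Cblb, 2.60 in Itgav and 2.45 in Itga4. Ptk2b had 1.80, and the lowest was 0.480 in Itgb3. The 6 higher regions lay 1 each in Itgb3, Itgb5, Itga4, Ptk2b, Cbl and Cblb, and none lay in Itgav, Itga6, Itgb1 or Src. The median loss was 31.2 points in these genes and 29.4 points in the series. Losses of at least 40 points numbered 40, while 13.5% of all regions in the table had one, and gains of that size numbered 2 (0.506% of the table).

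Most of these regions were highly methylated in BMM. The median BMM level was 89.1% in the 170 regions and 80.0% in the whole table, and the median pOC level was 55.7% and 48.6%. The genes differed in this starting level. It was highest in Itga4 and Cblb, with medians of 92.9% and 91.5%, and lowest in Itgb3 and Itga6, with 60.9% over 3 regions and 60.6% over 8. Fisher's exact test of the reads of the 2 libraries, two-sided and with Benjamini-Hochberg adjustment over the whole table, gave an adjusted p of at most 0.05 in 159 of the 170 regions, against 91.3% of the table. Regions were listed for their difference, so this test does not add to the listing. Counts were also divided by the number of CG sites in each region. Single reads were not available, so this counts each read once per strand and region only if every read spans all of those sites. By this approximation, called each read counted once below, 63 of the 170 had an unadjusted score test p of at most 0.05, against 27.2%.

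From pOC to mOC the direction was the opposite in these genes, as in the whole table. All 10 genes again held a listed region, as did 67.0% of protein-coding genes. Per 10 kb of span they held 1.76 regions, against 1.11 over all protein-coding genes. Of 160 regions, 148 were higher in mOC and 12 lower, against 89.1% higher and 10.9% lower in the table. Gains of at least 40 points numbered 23 (10.5% of the table) and losses of that size 0 (0.548%). Higher regions numbered 38 in Cblb, 22 in Itgav, 22 in Cbl, 19 in Ptk2b, 13 in Itgb5, 13 in Itga4, 8 in Itga6, 6 in Src, 6 in Itgb3 and 1 in Itgb1. Lower regions numbered 3 in Itgav, 3 in Cblb, 2 in Ptk2b and 1 each in Itgb3, Itgb5, Itga4 and Cbl. The median gain was 27.8 points in these genes and 27.9 points in the series, and the median mOC level was 88.0% against 73.9%. An adjusted p of at most 0.05 in Fisher's exact test of the 2 libraries was reached by 118 regions (64.8% of the table), and 39 reached the unadjusted p with each read counted once per strand and region (19.1% of the table).

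**Figure D1:**
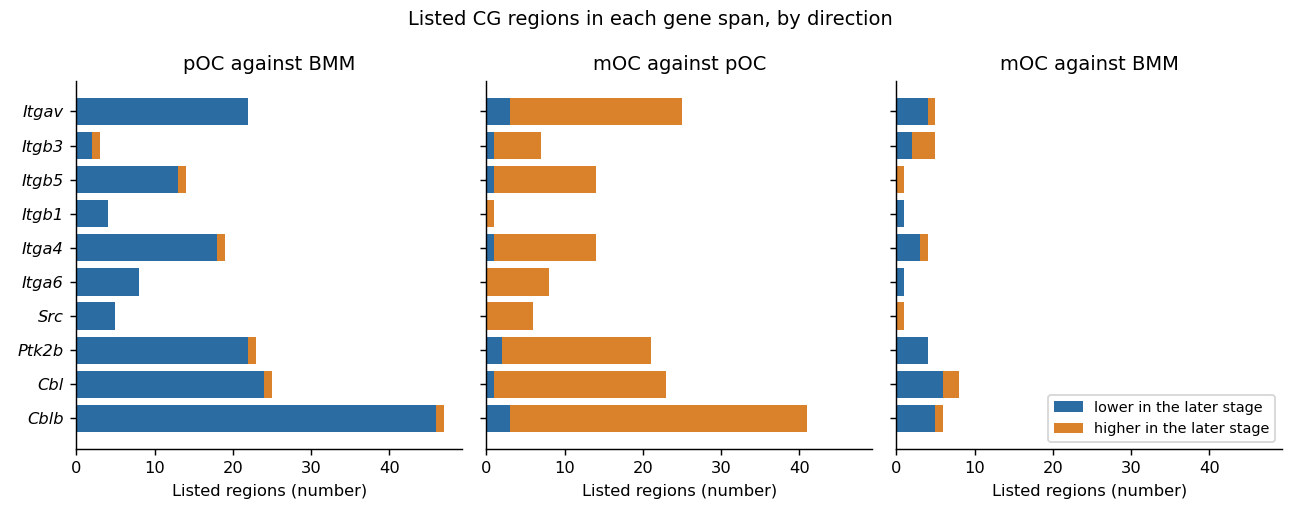
Number of listed CG regions in each gene span for the 3 comparisons, with regions lower in the later stage in blue and regions higher in the later stage in orange. In pOC against BMM 164 of 170 regions were lower, in mOC against pOC 148 of 160 were higher, and in mOC against BMM 26 of 36 were lower.

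The net comparison, mOC against BMM, listed 36 regions in the 10 genes. All 10 held at least 1, as did 44.7% of protein-coding genes. Per 10 kb of span they held 0.397 regions, against 0.313 over all protein-coding genes. Of the 36, 26 were lower in mOC and 10 higher, against 58.9% lower and 41.1% higher in the table. Regions of Itgb1, Itga6 and Ptk2b were all lower (1, 1 and 4), those of Itgb5 and Src were higher (1 each), and Itgb3 had 2 lower and 3 higher. Lower and higher regions numbered 4 and 1 in Itgav, 3 and 1 in Itga4, 6 and 2 in Cbl, and 5 and 1 in Cblb. The median loss was 26.0 points and the median gain 25.5 points, against 27.5 points each in the series. Losses of at least 40 points numbered 2, both in Cblb (4.54% of the table), and gains of that size 0 (3.04%). Fisher's exact test of the 2 libraries gave an adjusted p of at most 0.05 in 32 regions, against 93.8% of the table. With each read counted once per strand and region, 7 regions kept an unadjusted p of at most 0.05 (16.5% of the table), and they lay in Cbl (2), Cblb (2), Itgb3, Itgb5 and Ptk2b.

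A region has a level in all 3 libraries where at least 2 tables list it with the same coordinates. This was so in 84 of the 279 regions, and the other 195 have levels in 2 libraries. The tables share libraries, so the 3 levels are given side by side as a description. In 69 of the 84 the level was lower in pOC than in both other libraries by the listing, 23 of them in Cblb, 9 in Itgav, 9 in Ptk2b, 8 in Itga4, 8 in Cbl, 4 in Itgb5, 3 in Itga6, 2 in Itgb3, 2 in Src and 1 in Itgb1. Of all 113818 regions of the series with a level in all 3 libraries, 69.1% had this pattern. Pooled over these 69 the level was 85.8% in BMM, 53.8% in pOC and 82.7% in mOC. The difference of mOC from BMM in them had a median of -1.90 points and ranged from -26.0 points in Itga6 to 21.9 points in Src. Of the 69, 3 were listed for mOC against BMM, so the set was largely fixed by the absence of a listed net difference, and closeness to BMM is no result. By gene, the pooled level of such regions was 91.1% in BMM, 60.2% in pOC and 89.3% in mOC for Cblb, and 89.3%, 57.0% and 88.5% for Itga4. For Src it was 62.0%, 32.8% and 83.1%, so that mOC lay above BMM in both of its regions.

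**Figure D2:**
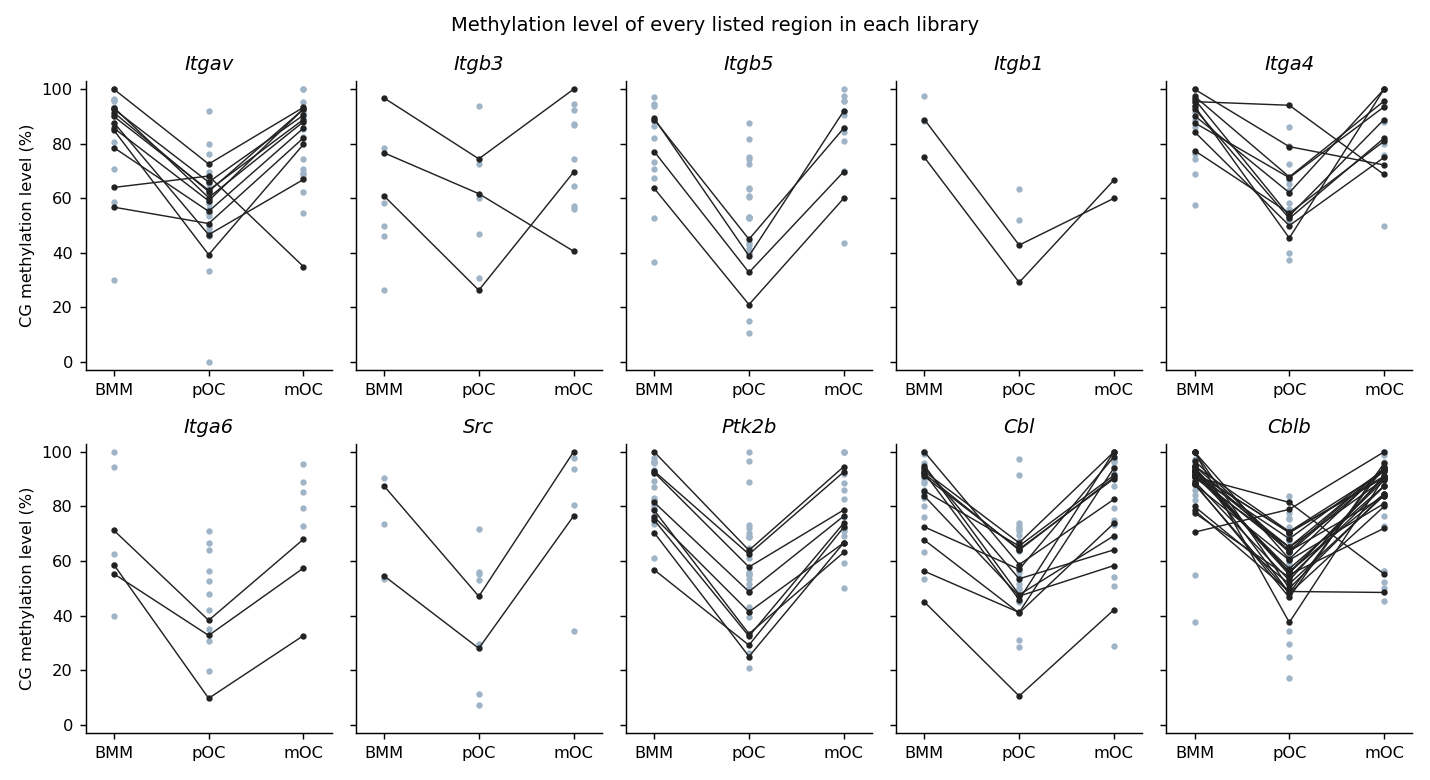
CG methylation level in percent of every listed region of the 10 genes in BMM, pOC and mOC. Black points joined by lines are the 84 regions with a level in all 3 libraries, and grey points are regions known in 2 libraries; most black lines dip at pOC, while 1 line in Itgav, 1 in Itgb3, 2 in Itga4 and 2 in Cblb are lowest in mOC.

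Itgav, the alpha v subunit gene on chromosome 2, carried 40 distinct regions. Its greatest difference was in chr2:83764402-83764801, a 400 bp region 40005 bp downstream of the start site with 12 cytosines. The level there was 84.9% in BMM (76.0 to 91.5, 93 reads), 39.3% in pOC (27.1 to 52.7, 61 reads) and 79.7% in mOC (69.2 to 88.0, 79 reads). The pOC interval did not overlap either of the others, but the region was picked for its great difference, so this is no test. The difference of mOC from BMM there was -5.20 points (-16.9 to 6.17). The Itgav region with the most reads, chr2:83759002-83759401, stood at 95.8% in BMM (91.2 to 98.5, 144 reads) and 66.7% in pOC (57.2 to 75.2, 114 reads). In chr2:83782402-83782601 the levels were 93.3% in BMM (85.9 to 97.5, 89 reads), 60.3% in pOC (52.0 to 68.1, 151 reads) and 88.0% in mOC (79.6 to 93.9, 92 reads). All of these regions were lower at 24 h.

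Itgav also held regions listed for a difference of mOC from BMM. chr2:83735802-83736001 was listed in all 3 tables, with 87.7% in BMM (79.9 to 93.3, 106 reads), 46.7% in pOC (33.7 to 60.0, 60 reads) and 66.9% in mOC (58.4 to 74.6, 139 reads). The mOC level lay between the other levels and was lower than in BMM by 20.8 points (10.3 to 30.4). In chr2:83793202-83793601 the loss came after 24 h, from 64.0% in BMM (52.1 to 74.8, 75 reads) and 68.2% in pOC (55.6 to 79.1, 66 reads) to 35.0% in mOC (24.7 to 46.5, 80 reads) (Fisher's exact test of mOC and BMM reads, adjusted p = 0.00535). It was not among the 7 regions that passed with each read counted once. The only Itgav region higher in mOC than in BMM, chr2:83732802-83733001, stood at 56.8% in BMM (39.5 to 72.9, 37 reads), 50.8% in pOC (38.1 to 63.4, 65 reads) and 82.1% in mOC (63.1 to 93.9, 28 reads). By the listing alone, regions of this gene thus took different courses. None of the 5 Itgav regions listed for mOC against BMM passed with each read counted once.

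Itgb3, the beta 3 subunit gene that encodes the partner of alpha v in the osteoclast, had regions of both directions in every table. Of its 12 distinct regions on chromosome 11, chr11:104618402-104618601 followed the dip, with 60.9% in BMM (38.5 to 80.3, 23 reads), 26.3% in pOC (9.15 to 51.2, 19 reads) and 69.6% in mOC (47.1 to 86.8, 23 reads). chr11:104670402-104670601, which runs over the upper end of the span, did so as well, with 96.8% in BMM (83.3 to 99.9, 31 reads), 74.5% in pOC (59.7 to 86.1, 47 reads) and 100% in mOC (87.7 to 100, 28 reads). chr11:104620602-104620801 instead was lower at each later stage, with 76.7% in BMM (57.7 to 90.1, 30 reads), 61.7% in pOC (46.4 to 75.5, 47 reads) and 40.6% in mOC (23.7 to 59.4, 32 reads). Neighbouring intervals overlapped in this series of levels, and the interval of the difference between the ends did not hold 0, at 36.0 points (11.5 to 55.1). A region 400 bp further on, chr11:104621202-104621401, was higher in mOC, at 26.3% in BMM (9.15 to 51.2, 19 reads) and 64.7% in mOC (38.3 to 85.8, 17 reads).

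The only Itgb3 region listed as higher in pOC than in BMM, chr11:104658402-104658601, is part of the 400 bp region chr11:104658202-104658601, listed as higher in mOC than in BMM. The smaller region stood at 46.2% in BMM (26.6 to 66.6, 26 reads) and 93.8% in pOC (79.2 to 99.2, 32 reads), and the larger one, with 20 cytosines, at 50.0% in BMM (39.0 to 61.0, 86 reads) and 74.3% in mOC (65.3 to 82.1, 113 reads). A gain was thus listed at 24 h for the smaller region and at 72 h for the larger one, with BMM reads in common. The smaller region has no mOC level, so whether its own gain lasted is not known. The greatest gain from pOC to mOC, in chr11:104666402-104666601, was from 47.1% in pOC (32.9 to 61.5, 51 reads) to 92.3% in mOC (81.5 to 97.9, 52 reads).

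Itgb5, whose beta 5 subunit also pairs with alpha v, had 25 distinct regions on chromosome 16. In chr16:33856801-33857000 the level was 70.6% in BMM (44.0 to 89.7, 17 reads) and 15.0% in pOC (3.21 to 37.9, 20 reads), the greatest loss of the gene. The 400 bp region that contains it, chr16:33856801-33857200, stood at 40% in pOC (27.6 to 53.5, 60 reads) and 81.0% in mOC (68.6 to 90.1, 58 reads). The greatest gain of the 10 genes from pOC to mOC lay in chr16:33908601-33908800, from 40% in pOC (22.7 to 59.4, 30 reads) to 100% in mOC (88.1 to 100, 29 reads) (Fisher's exact test of the 2 libraries, adjusted p = 1.17e-05). With each read counted once, the unadjusted score test p was 0.00386. This region was picked for its gain, so neither p adds to the listing. The deepest region, chr16:33885801-33886200, stood at 67.4% in BMM (57.0 to 76.6, 95 reads) and 41.4% in pOC (32.9 to 50.2, 133 reads). In the 4 regions known in all 3 libraries the pooled level was 80.4% in BMM, 33.9% in pOC and 76.7% in mOC. Against the trend, chr16:33917601-33917800 was higher in pOC, with 52.6% in BMM (28.9 to 75.6, 19 reads) and 87.5% in pOC (61.7 to 98.4, 16 reads). chr16:33887601-33887800 was lower in mOC than at 24 h, from 81.8% in pOC (59.7 to 94.8, 22 reads) to 43.8% in mOC (19.8 to 70.1, 16 reads). The 1 region listed for mOC against BMM, chr16:33912401-33912600, was higher in mOC, with 73.2% in BMM (57.1 to 85.8, 41 reads) and 95.7% in mOC (85.5 to 99.5, 47 reads). The region nearest the start site, chr16:33831401-33831600, stood at 74.5% in pOC (61.0 to 85.3, 55 reads) and 97.6% in mOC (87.4 to 99.9, 42 reads).

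**Figure D3:**
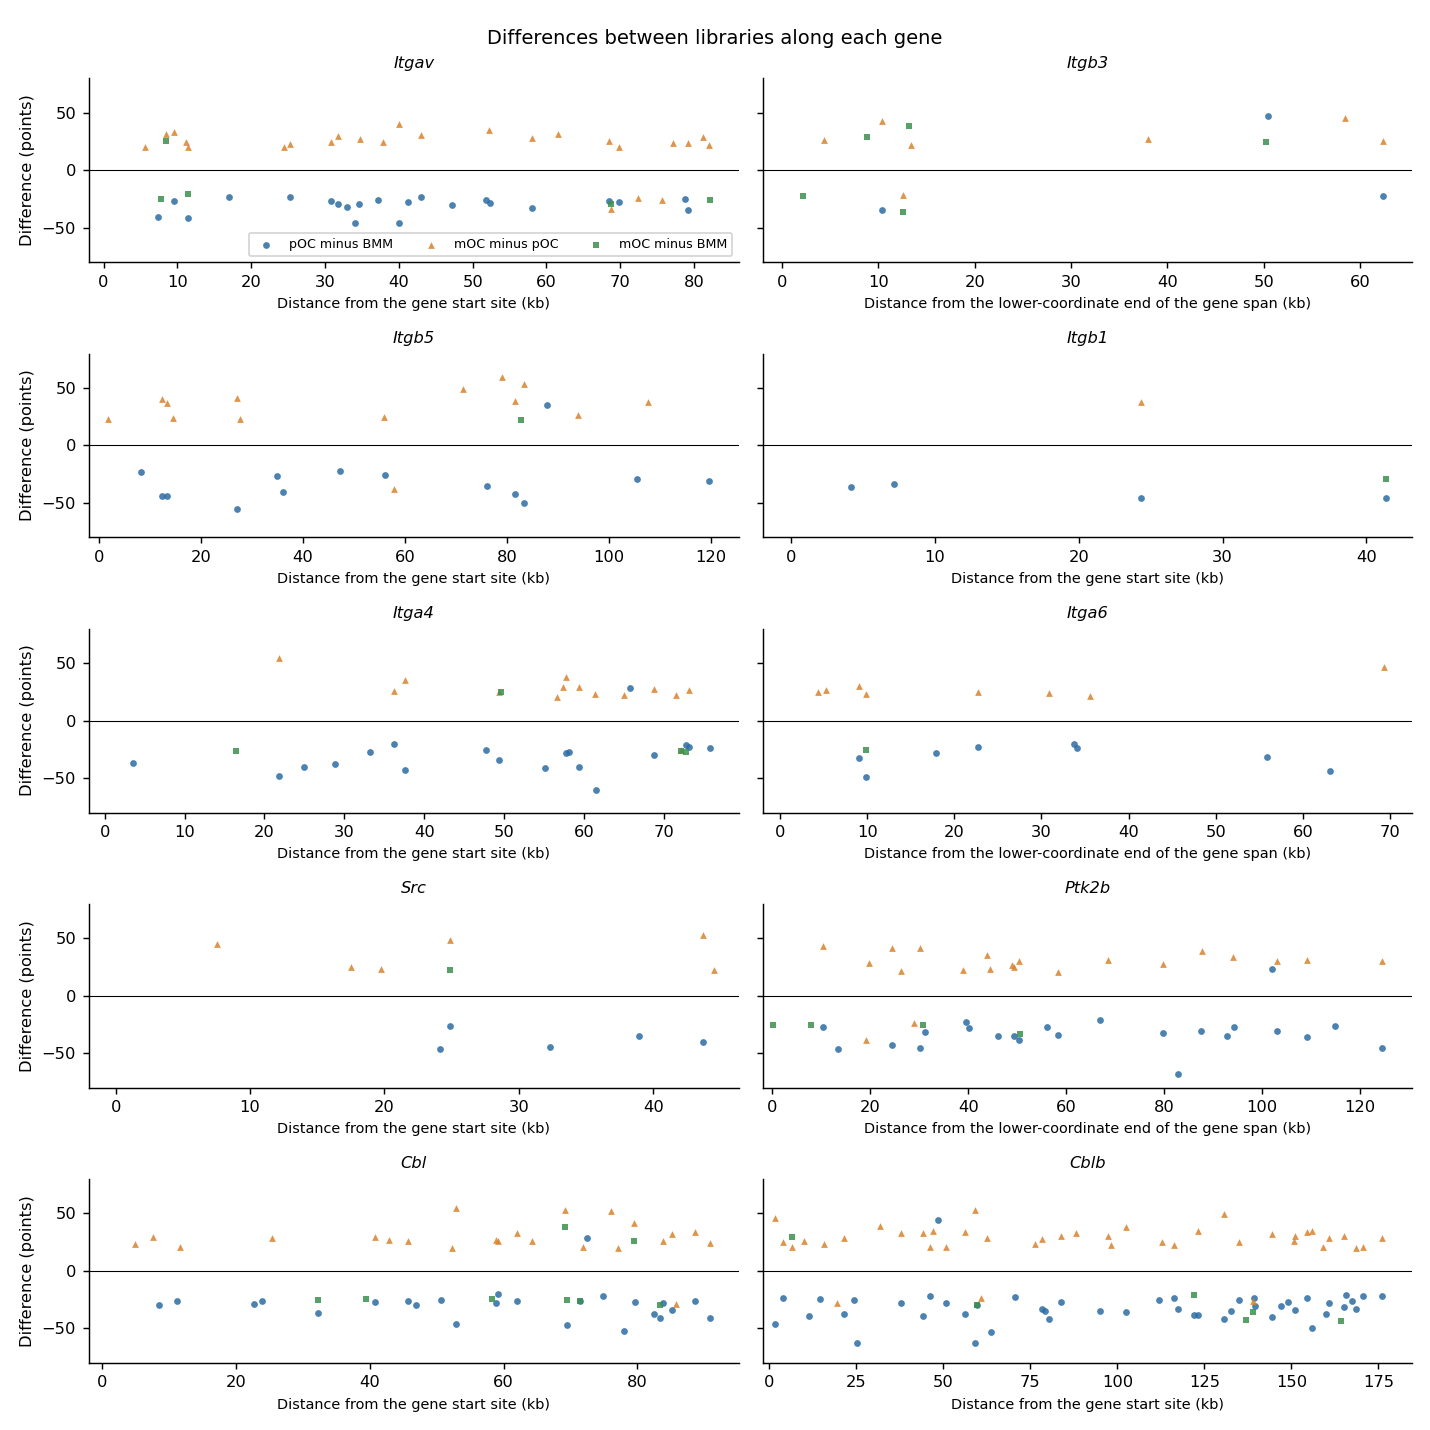
Difference in methylation level in points (vertical axis) against the distance in kb from the gene start site, or from the lower-coordinate end of the span for Itgb3, Itga6 and Ptk2b, which had no promoter entry. Blue circles are pOC minus BMM, orange triangles mOC minus pOC and green squares mOC minus BMM. Losses at 24 h and gains after it lie along the gene spans, and among the 7 genes with a start site the nearest point is at 1652 bp, in Cblb.

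The beta 1 subunit gene Itgb1, a partner of the alpha 4 and alpha 6 subunits among others, held 4 distinct regions on chromosome 8. In chr8:128727001-128727200 the level was 88.9% in BMM (70.8 to 97.6, 27 reads), 42.9% in pOC (24.5 to 62.8, 28 reads) and 60.0% in mOC (40.6 to 77.3, 30 reads), and the difference of mOC from BMM was -28.9 points (-48.0 to -5.98). chr8:128710001-128710200 stood at 75.0% in BMM (47.6 to 92.7, 16 reads), 29.2% in pOC (12.6 to 51.1, 24 reads) and 66.7% in mOC (41.0 to 86.7, 18 reads). The region with the most reads, chr8:128692801-128693000, stood at 97.3% in BMM (90.7 to 99.7, 75 reads) and 63.5% in pOC (50.4 to 75.3, 63 reads). All 4 regions were lower in pOC than in BMM.

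Itga4, which encodes the alpha 4 subunit that binds VCAM1 and fibronectin, had 27 distinct regions on chromosome 2, with a median of 4 cytosines a region in each table. The greatest loss was in chr2:79317002-79317201, from 100% in BMM (79.4 to 100, 16 reads) to 40% in pOC (21.1 to 61.3, 25 reads). chr2:79277202-79277401 showed a loss and a full return, with 93.8% in BMM (69.8 to 99.8, 16 reads), 45.5% in pOC (28.1 to 63.6, 33 reads) and 100% in mOC (84.6 to 100, 22 reads). The deeper regions chr2:79291602-79291801 and chr2:79327002-79327201 lay the same ways. The former stood at 87.7% in BMM (76.3 to 94.9, 57 reads) and 67.6% in pOC (50.2 to 82.0, 37 reads), and the latter at 58.1% in pOC (42.1 to 73.0, 43 reads) and 80.0% in mOC (64.4 to 90.9, 40 reads). Toward the far end of the gene, 72176 and 72776 bp from the start site, a neighbouring pair of regions was lower in mOC than in BMM. chr2:79327602-79327801 stood at 95.5% in BMM (77.2 to 99.9, 22 reads), 94.1% in pOC (71.3 to 99.9, 17 reads) and 68.8% in mOC (41.3 to 89.0, 16 reads). chr2:79328202-79328401 stood at 100% in BMM (83.9 to 100, 21 reads), 78.9% in pOC (54.4 to 93.9, 19 reads) and 72.2% in mOC (46.5 to 90.3, 18 reads). At these depths the late loss in the former missed an adjusted p of 0.05 (Fisher's exact test of mOC and BMM reads, adjusted p = 0.0653). The region 200 bp beyond the pair, chr2:79328602-79328801, dipped instead, with 77.5% in BMM, 54.5% in pOC and 81.0% in mOC. None of the 4 Itga4 regions listed for mOC against BMM passed with each read counted once. The deepest region listed for mOC against BMM, chr2:79271802-79272001, stood at 76.3% in BMM (63.4 to 86.4, 59 reads) and 50.0% in mOC (31.9 to 68.1, 32 reads). The regions of the opposite direction were chr2:79321202-79321401, with 57.7% in BMM (36.9 to 76.6, 26 reads) and 86.2% in pOC (68.3 to 96.1, 29 reads), and chr2:79305002-79305201, with 69.0% in BMM (49.2 to 84.7, 29 reads) and 93.9% in mOC (79.8 to 99.3, 33 reads).

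Itga6, which encodes the alpha 6 subunit of laminin receptors, had 13 distinct regions on chromosome 2, and in the 8 listed for pOC against BMM the median BMM level was 60.6%. chr2:71796802-71797001 was listed in all 3 tables, with 58.6% in BMM (38.9 to 76.5, 29 reads), 9.68% in pOC (2.04 to 25.8, 31 reads) and 32.7% in mOC (19.9 to 47.5, 49 reads). The mOC level was lower than in BMM by 26.0 points (3.28 to 45.5), the greatest such loss among the 69 regions that dipped. A 400 bp region that ends 400 bp before it, chr2:71796002-71796401, ended closer to its starting level, with 71.2% in BMM (59.4 to 81.2, 73 reads), 38.3% in pOC (27.7 to 49.7, 81 reads) and 68.0% in mOC (60.0 to 75.3, 153 reads). The greatest gain from pOC to mOC lay in chr2:71856202-71856401, with 42.1% in pOC (26.3 to 59.2, 38 reads) and 88.9% in mOC (70.8 to 97.6, 27 reads). chr2:71820602-71820801, which had the most reads for pOC against BMM, stood at 40% in BMM (29.2 to 51.6, 80 reads) and 19.8% in pOC (12.2 to 29.4, 91 reads).

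Src encodes the kinase needed for the ruffled border, the membrane through which an osteoclast secretes acid and proteases. It had 9 distinct regions on chromosome 2, all lower in pOC where pOC was listed. chr2:157448402-157448601, 24109 bp from the start site, stood at 53.3% in BMM (37.9 to 68.3, 45 reads) and 7.14% in pOC (1.5 to 19.5, 42 reads). After a gap of 600 bp, chr2:157449202-157449401 was listed in all 3 tables. Its levels were 54.5% in BMM (40.6 to 68.0, 55 reads), 28.0% in pOC (16.2 to 42.5, 50 reads) and 76.5% in mOC (62.5 to 87.2, 51 reads). Here mOC ended above BMM, by 21.9 points (3.77 to 38.1), with an adjusted p of 0.0368 in Fisher's exact test of the 2 libraries. It was not among the 7 regions that passed with each read counted once. In chr2:157468002-157468201 the level was 87.5% in BMM (61.7 to 98.4, 16 reads), 47.1% in pOC (23.0 to 72.2, 17 reads) and 100% in mOC (83.2 to 100, 20 reads). The interval of the difference of mOC from BMM held 0 there, at 12.5 points (-5.96 to 36.0).

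Ptk2b, the gene of Pyk2, a relative of focal adhesion kinase that binds Src, had 39 distinct regions on chromosome 14. Of these, 5 also lie in the long noncoding RNA gene Gm52098 and 1 in Gm52099. The greatest loss of the 10 genes at 24 h lay in chr14:66236201-66236400, from 89.3% in BMM (71.8 to 97.7, 28 reads) to 20.7% in pOC (7.99 to 39.7, 29 reads) (Fisher's exact test of the 2 libraries, adjusted p = 5.76e-06). With each read counted once, the unadjusted score test p was 0.000237. This region was picked for its loss, so neither p adds to the listing. The 600 bp region with the most reads, chr14:66203601-66204200, stood at 87.1% in BMM (80.2 to 92.3, 132 reads) and 48.8% in pOC (37.6 to 60.1, 82 reads). The middle 200 bp of it, chr14:66203801-66204000, was listed as lower in mOC, with 93.2% in BMM (81.3 to 98.6, 44 reads) and 59.5% in mOC (42.1 to 75.2, 37 reads). That stretch has no listed pOC level of its own, so whether a loss at 24 h lasted there is not known. All 4 Ptk2b regions listed for mOC against BMM were lower, among them chr14:66161201-66161400 with 96.8% in BMM (88.8 to 99.6, 62 reads) and 71.2% in mOC (56.9 to 82.9, 52 reads). The one nearest a span end, chr14:66153401-66153600, stood at 92.3% in BMM (74.9 to 99.1, 26 reads) and 66.7% in mOC (47.2 to 82.7, 30 reads). Over the 69 regions of the 10 genes that dipped, mOC was below BMM in 43, above it in 25 and equal in 1. In the 9 of Ptk2b, mOC was below BMM in 8 and above it in 1, and the interval of the difference held 0 in all 9. None of the 9 was listed for mOC against BMM. The pooled levels there were 83.1% in BMM, 50.1% in pOC and 79.4% in mOC. The exception was chr14:66163601-66163800, with 56.8% in BMM (39.5 to 72.9, 37 reads), 29.2% in pOC (12.6 to 51.1, 24 reads) and 72.4% in mOC (52.8 to 87.3, 29 reads). The region with the most reads for mOC against pOC, chr14:66247401-66247800, stood at 55.2% in pOC (44.1 to 65.9, 87 reads) and 88.7% in mOC (79.0 to 95, 71 reads). chr14:66172401-66172600 was lower in mOC than in pOC, from 88.9% in pOC (65.3 to 98.6, 18 reads) to 50.0% in mOC (24.7 to 75.3, 16 reads). Higher in pOC than in BMM was chr14:66255401-66255600, with 73.5% in BMM (55.6 to 87.1, 34 reads) and 96.7% in pOC (82.8 to 99.9, 30 reads).

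Cbl, the gene of a ubiquitin ligase that is phosphorylated by Src, had 43 distinct regions on chromosome 9, where it lies on the minus strand. The deepest, the 600 bp region chr9:44149601-44150200, stood at 99.1% in BMM (95 to 100.0, 109 reads) and 71.1% in pOC (63.6 to 77.8, 166 reads). The greatest loss was in chr9:44155801-44156000, from 100% in BMM (79.4 to 100, 16 reads) to 47.6% in pOC (25.7 to 70.2, 21 reads). chr9:44181001-44181200 dipped and returned, with 92.3% in BMM (74.9 to 99.1, 26 reads), 45.8% in pOC (25.6 to 67.2, 24 reads) and 100% in mOC (85.8 to 100, 24 reads). So did chr9:44188201-44188400, which had the most reads for mOC against pOC, at 91.0% in BMM (83.1 to 96.0, 89 reads), 64.4% in pOC (53.4 to 74.4, 87 reads) and 90.1% in mOC (80.7 to 95.9, 71 reads). A single region, chr9:44161401-44161600, was higher in pOC than in BMM, with 63.3% in BMM (48.3 to 76.6, 49 reads) and 91.7% in pOC (80.0 to 97.7, 48 reads). Likewise a single one, chr9:44148001-44148200, was lower in mOC than in pOC, with 97.3% in pOC (85.8 to 99.9, 37 reads) and 68.8% in mOC (41.3 to 89.0, 16 reads).

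Cbl had 8 regions listed for mOC against BMM, the most of the 10 genes. Both of the next regions were listed as lower than BMM in pOC and in mOC, with no listed gain from pOC to mOC. chr9:44150401-44150600 stood at 94.3% in BMM (80.8 to 99.3, 35 reads), 53.5% in pOC (37.7 to 68.8, 43 reads) and 64.1% in mOC (47.2 to 78.8, 39 reads). In chr9:44164401-44164600 the levels were 95% in BMM (75.1 to 99.9, 20 reads), 47.6% in pOC (25.7 to 70.2, 21 reads) and 69.2% in mOC (48.2 to 85.7, 26 reads). The adjoining 200 bp, chr9:44164601-44164800, ended higher than in BMM, with 56.2% in BMM (29.9 to 80.2, 16 reads), 41.2% in pOC (18.4 to 67.1, 17 reads) and 94.1% in mOC (71.3 to 99.9, 17 reads). These adjoining stretches had overlapping intervals in pOC, and by the listing they differed in direction from BMM in mOC. Neither stretch was among the 7 regions that passed with each read counted once. The gain with the most reads, in chr9:44154401-44154600, was at 72.5% in BMM (56.1 to 85.4, 40 reads), 56.9% in pOC (44.7 to 68.6, 72 reads) and 98.2% in mOC (90.3 to 100.0, 55 reads) (Fisher's exact test of mOC and BMM reads, adjusted p = 0.00411). It was 1 of the 7 regions that passed with each read counted once.

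Cblb, the longest of the 10 genes at 176.8 kb on chromosome 16, encodes the related ligase Cbl-b and had the most distinct regions, 67. Its region nearest the start site, chr16:52033201-52033400, stood at 94.4% in BMM (81.3 to 99.3, 36 reads), 48.3% in pOC (29.4 to 67.5, 29 reads) and 94.4% in mOC (81.3 to 99.3, 36 reads), with the same level in BMM and mOC. The greatest loss at 24 h lay in chr16:52056801-52057000, from 88.2% in BMM (63.6 to 98.5, 17 reads) to 25.0% in pOC (10.7 to 44.9, 28 reads). chr16:52090601-52090800 showed the greatest gain after it, with 100% in BMM (85.8 to 100, 24 reads), 37.5% in pOC (15.2 to 64.6, 16 reads) and 90.5% in mOC (69.6 to 98.8, 21 reads). The deepest regions followed the same course. chr16:52147801-52148000 stood at 94.8% in BMM (85.6 to 98.9, 58 reads), 70.8% in pOC (61.5 to 79.0, 113 reads) and 92.9% in mOC (82.7 to 98.0, 56 reads), and chr16:52109801-52110200 at 60.6% in pOC (50.0 to 70.6, 94 reads) and 88.0% in mOC (80.3 to 93.4, 108 reads). Among the 23 Cblb regions that dipped, mOC was below BMM in 15, above it in 7 and equal in 1. Over the 69 such regions of the 10 genes these numbers were 43, 25 and 1. None of the 23 Cblb regions was listed for mOC against BMM, and the interval of the difference held 0 in all 23. chr16:52091201-52091400, 400 bp beyond the region of greatest gain, did not return, with 78.6% in BMM (59.0 to 91.7, 28 reads), 48.8% in pOC (33.3 to 64.5, 43 reads) and 48.5% in mOC (30.8 to 66.5, 33 reads).

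Of the 5 Cblb regions lower in mOC than in BMM, 3 lay 137052, 139052 and 164252 bp from the start site. chr16:52170601-52170800 stood at 90.9% in BMM (70.8 to 98.9, 22 reads), 81.5% in pOC (68.6 to 90.7, 54 reads) and 55.3% in mOC (38.3 to 71.4, 38 reads). chr16:52168601-52168800, the first of these, stood at 88.3% in BMM (77.4 to 95.2, 60 reads) and 45.2% in mOC (29.8 to 61.3, 42 reads) (Fisher's exact test of the 2 libraries, adjusted p = 0.000389). chr16:52195801-52196000 stood at 93.8% in BMM (69.8 to 99.8, 16 reads) and 50.0% in mOC (24.7 to 75.3, 16 reads). chr16:52051001-52051200 was the Cblb region of greatest loss from pOC to mOC, at 84.0% in pOC (63.9 to 95.5, 25 reads) and 56.2% in mOC (29.9 to 80.2, 16 reads). Exceptions to the main directions were chr16:52080001-52080200, higher in pOC with 37.5% in BMM (15.2 to 64.6, 16 reads) and 81.5% in pOC (61.9 to 93.7, 27 reads), and chr16:52038001-52038200, highest in mOC with 70.6% in BMM (44.0 to 89.7, 17 reads), 78.9% in pOC (54.4 to 93.9, 19 reads) and 100% in mOC (80.5 to 100, 17 reads).

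**Figure D4:**
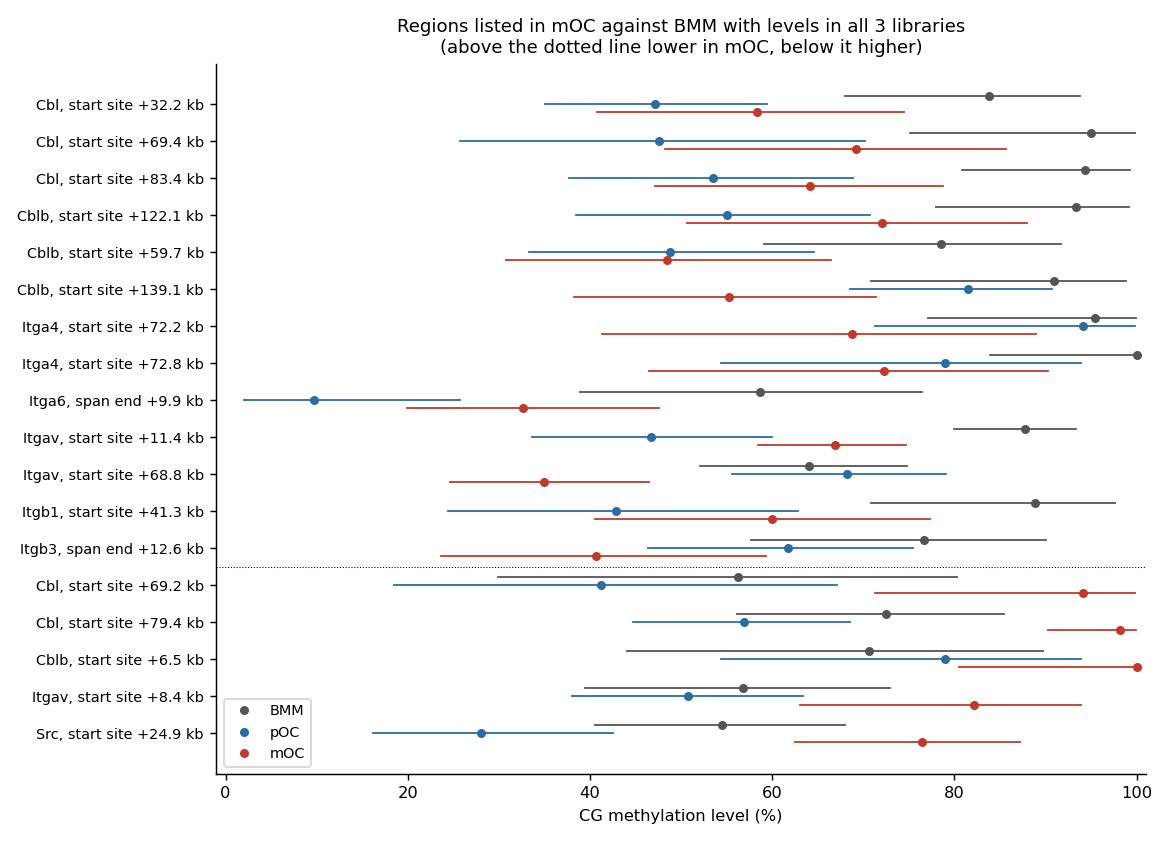
CG methylation level in percent, with exact 95% intervals for counting error as bars, in BMM (grey), pOC (blue) and mOC (red) for the 18 regions listed for mOC against BMM that also have a pOC level. Regions above the dotted line were lower in mOC than in BMM and those below it higher; labels give the distance from the gene start site, or from the lower-coordinate end of the span, in kb.

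Directions of regions that lay close together are given beside the whole series. Most pairs agree wherever they lie when 92.9% or 89.1% of listed regions share a direction, and fewer do at 58.9%. Nothing about closeness is thus read from the pairs, and mOC against BMM had only 4. Counting neighbouring listed regions of 1 gene less than 1000 bp apart, 27 of 29 pairs in pOC against BMM went the same way, against 90.4% of 35135 such pairs anywhere in the table, inside or outside genes. The numbers were 20 of 27 in mOC against pOC, against 81.9% of 26769, and 1 of 4 in mOC against BMM, against 49.0% of 2429. Neighbouring regions share reads and cells and are not independent. Of the 279 regions, 258 were 200 bp wide, 18 were 400 bp and 3 were 600 bp.

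Other genes of the adhesion pathway are given beside the whole series, where 67.2% and 67.0% of protein-coding genes held a region listed for pOC against BMM and mOC against pOC. Of 20 other integrin subunit genes, all held a region listed for pOC against BMM, 12 with only lower regions and 8 with both directions, and in mOC against pOC 12 held only higher regions, 7 both and 1 none. Of 11 other genes of Src-family and focal adhesion kinases and their regulators, 7 held only regions lower in pOC than in BMM and 4 both, and 7 held only regions higher in mOC than in pOC and 4 both. Among 21 adhesion signalling partners the numbers were 18 only lower and 2 both at 24 h, and 15 only higher and 5 both after it. Among 8 genes of integrin ligands they were 4 and 2, then 3 and 2. Lower and higher regions numbered 172 and 9, 142 and 5, 313 and 3, and 62 and 2 in the 4 lists at 24 h, beside 92.9% lower in the whole table. In mOC against pOC they numbered 15 and 138, 6 and 112, 12 and 250, and 3 and 52, beside 89.1% higher. In mOC against BMM they numbered 27 and 21, 26 and 11, 37 and 27, and 7 and 6, beside 58.9% lower. Nothing particular to these lists is read from their counts.

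Vav3, which acts downstream of integrins in osteoclasts, held the most regions of these 4 lists, 116 lower and none higher in pOC than in BMM. That count is not corrected for gene length. The greatest loss at 24 h in the 4 lists was 75.7 points (43.1 to 88.1) in Rapgef1, an exchange factor for Rap1. The levels there were 88.2% in BMM (17 reads) and 12.5% in pOC (16 reads). The greatest gain at 24 h was 41.3 points (21.9 to 56.6, 49 BMM and 50 pOC reads) in Itga11, a collagen-binding subunit gene. From pOC to mOC the greatest gain was 61.1 points (34.7 to 79.7, 18 pOC and 24 mOC reads) in the vinculin gene Vcl. The greatest loss was 53.0 points (24.4 to 71.1, 29 pOC and 19 mOC reads) in Itgb7, a partner of alpha 4. From BMM to mOC the greatest loss was 49.0 points (26.7 to 65.7, 42 BMM and 30 mOC reads) in Ptk2, which encodes focal adhesion kinase. The greatest gain was 44.7 points (14.5 to 65.9, 17 BMM and 25 mOC reads) in Rap1a.

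Marker genes of the cell types that such cultures could hold are given beside the same shares. In pOC against BMM, 6 osteoclast marker genes held 21 lower and 0 higher regions, 5 macrophage marker genes held 48 and 0, and 19 markers of other marrow cells held 107 and 2. No region was held by 1 of the macrophage markers and 8 of the markers of other marrow cells. Runx2, a transcription factor of bone-forming cells, held 77 of the 107 lower regions. Itgam stands both among the macrophage markers and the other integrins, with 11 lower regions. In mOC against pOC the lower and higher regions numbered 2 and 11, 2 and 32, and 6 and 96, and in mOC against BMM 4 and 0, 8 and 5, and 18 and 7. Of the 96 higher regions in mOC against pOC, Runx2 held 64. The greatest gain from BMM to mOC over all 7 lists was 45.8 points (25.7 to 60.9) in Pax5, a B cell transcription factor gene. Pax5 held 5 lower and 3 higher regions in that comparison, with a greatest loss of 40.7 points (22.2 to 54.6). The part of a change in cell mix in the values above was not tested.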

How the data were processed

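Levels come from 3 deposited tables, each comparing 2 of the 3 libraries (BMM, pOC and mOC), matched to the stages by the hours in the table headings. Per the file headers, a region has 2 deposited read counts per library (methylated and all), its level as a fraction, the number of CG cytosines and a p-value. The submitters' processing notes name GRCm38, FastQC, HISAT2 and StringTie, without roles. How bisulfite reads were aligned and how regions were called and tested is not given in the sources used here. Every listed region differed by at least 20 points, so the tables show nothing of regions that changed less. The authors' deposited p-value was used only as a threshold in alternatives.

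Regions of 10 reads or more in both libraries were kept, which removed none. Levels have exact Clopper-Pearson and differences Newcombe 95% intervals. Fisher's exact test was adjusted by Benjamini-Hochberg over each whole table and was tested on simulated data. Depth in the members' regions ran from 16 to 166 reads, with medians of 32.0 to 35.5 per library in each comparison. Gene spans and promoter sequences are from RefSeq (GRCm38.p6), without exons. Python 3.11.15, SciPy 1.17.1 and numba 0.67.0 were used. Members, gene lists and tests were chosen with earlier results of these data known. For each gene the regions named are those of greatest difference in each table and direction, those with the most reads, those in all 3 tables and those within 2000 bp of the start site, or of a span end where there was none. Further regions beside these, chr2:79328602-79328801, chr9:44164401-44164600, chr16:52091201-52091400 and chr16:52170601-52170800, were chosen after their values were seen. From 4 pathway and 3 marker lists, genes were named among those with the most regions or the greatest differences.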

Additional observations from a re-analysis of the deposited data

How the results depend on the processing

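Single libraries, 200 bp regions and a median near 35 reads limit each value. No paired analysis was possible because each stage had 1 library. Extending the spans by 5000 bp or asking for an overlap of 100 bp kept each count within 1.5 times. The other settings give, in order, regions lower and higher in pOC than BMM, lower and higher in mOC than pOC, lower and higher in mOC than BMM, and low in pOC against both others with an overlap of at least 1 bp (164, 6, 12, 148, 26, 10 and 80 as reported). With at least 30 reads in both libraries they were 86, 2, 3, 71, 12, 5 and 35. With differences of at least 30 points they were 89, 3, 3, 58, 7, 2 and 28. Counting each read once by the approximation above (unadjusted score test p at most 0.05) gave 61, 2, 1, 38, 5, 2 and 15. Where the authors' p-value was 0.001 or less they were 38, 1, 1, 22, 1, 0 and 6. Where it was 0.05 or less the regions lower in mOC than pOC numbered 7, and no other count moved by over 1.5 times. The read-weighted level of the pOC library over regions listed against BMM was 55.1%, and 53.8% with regions weighted equally or 56.4% with at least 30 reads. That of mOC over regions listed against pOC was 82.0%, and 83.0% or 80.5%. The cause of these shifts was not tested, beyond that stricter settings leave fewer regions.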
